A study of Mus musculus with 12 samples.

Results

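The skeletal muscle contractile and metabolic genes were 39 genes of the sarcomere, of the calcium machinery that drives it and of muscle energy supply, taken as a measure of muscle content and fibre type in the ankle joint. A gene was represented by the array feature whose annotation gave its symbol alone. Trdn was the 1 gene with more than 1 such feature, and the feature with the highest mean signal was used. All 39 were measured and tested, out of 19938 genes of the series with a feature of 1 symbol. Total RNA of the ankle joint was taken from 12 mice, 3 per group, and hybridised on Affymetrix Mouse Gene 1.0 ST arrays, and values are log2 signals after robust multichip average (RMA) normalisation. The 4 groups were Mmp8+/+ control, Mmp8-/- control, arthritic Mmp8+/+ and arthritic Mmp8-/- mice, all males on a C57BL/6 background. Mmp8-/- mice lack MMP-8, a neutrophil collagenase, in every cell. They descended from a stock of mixed background backcrossed to C57BL/6 for 12 generations, and the Mmp8+/+ mice were bred from the same crosses. Arthritic mice had received 150 µl of serum from K/BxN mice, which carries autoantibodies that inflame the joints, on days 0 and 2 and were killed on day 7. Mice given serum were 6 to 8 weeks old. Control mice had no arthritis, and the sources used here describe no injection for them. The age of the control mice is not given in the sources used here.

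Skeletal muscle fibres are packed with sarcomeres, in which myosin thick filaments pull on actin thin filaments between Z discs. Calcium released from the sarcoplasmic reticulum switches the thin filament on through troponin, and ATP is buffered by creatine kinase and renewed by glycolysis and mitochondria. Fast and slow fibres use different genes for many of the same parts, so that the balance of these isoforms tells fibre type. An ankle joint taken whole can hold pieces of muscle and its insertions beside bone, cartilage, synovium, tendon, fat and skin. In RNA from the whole joint, a smaller share of muscle in the sample and less of these RNAs per fibre cannot be told apart.

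Array medians over all features lay between 6.74 and 6.82. The labels of 3 arrays did not sit with the data. Xist, the RNA of the inactive X chromosome, read 10.42 on the array of Mmp8+/+ control mouse 1 and 10.92 on that of Mmp8-/- control mouse 1, both labelled male, and 4.66 to 5.41 on the other arrays. Mmp8 read 10.65 on the array labelled Mmp8-/- control mouse 2 and 4.64 to 5.54 on the other Mmp8-/- arrays. The reading of 10.65 lay within the 10.21 to 11.16 of the Mmp8+/+ arrays. Directions drawn from Mmp8-/- control mice therefore rest in part on an array with Mmp8 signal. Counts of called genes over lists are also given without these 3 arrays, which leaves 2 Mmp8+/+ and 1 Mmp8-/- control mice.

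Defining markers of skeletal muscle were present, with Acta1 at 12.57 to 13.34 and Ckm at 11.44 to 12.57 on control arrays, and mean signals of the 39 genes over the 12 arrays ran from 6.68 to 12.35. RefSeq promoter windows of GRCm38.p6, from 250 bases before to 50 after a gene's start, were at hand for 31 of the 39. Actn3, Tnni2, Tnnt3, Neb, Myoz1, Myot, Tcap and Trdn had no entry in that table. The windows were searched on both strands for motifs bound by muscle regulators. CAGCTG, the form of the E-box CANNTG that suits MyoD family factors, was in 20 of 38 member windows (52.6%) and in 16.3% of the 32851 windows of all genes. CANNTG itself, which includes CAGCTG, was in 31 (81.6%, against 72.3%). The MCAT element CATTCC, bound by TEAD factors, was in 12 (31.6%, against 14.7%). A MEF2 site was in 4 (10.5%, against 3.19%), and a CArG box, bound by serum response factor, in 5 windows of 4 genes (13.2%, against 1.63%). These matches are descriptions of letters, not of binding.

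The windows of Acta1, the actin of the thin filament, of Myl3, a slow light chain, and of Myh4, the fastest of the limb myosins, are shown because they hold a CArG box and stand for the thin filament, the slow and the fast genes. The 250 bases before each start are given 5′ to 3′, from chr8:123894776-123895025 on the minus strand for Acta1, chr9:110763428-110763677 on the plus strand for Myl3 and chr11:67237562-67237811 on the plus strand for Myh4. Capitals mark matches to the motifs on either strand. The CArG box lies 73 bases before the start in Acta1, 85 in Myl3 and 104 in Myh4.
Acta1: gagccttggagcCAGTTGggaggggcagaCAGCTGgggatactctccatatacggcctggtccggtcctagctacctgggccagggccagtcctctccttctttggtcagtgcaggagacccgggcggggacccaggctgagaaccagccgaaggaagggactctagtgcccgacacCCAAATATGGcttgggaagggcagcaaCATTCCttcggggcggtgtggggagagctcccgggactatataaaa
Myl3: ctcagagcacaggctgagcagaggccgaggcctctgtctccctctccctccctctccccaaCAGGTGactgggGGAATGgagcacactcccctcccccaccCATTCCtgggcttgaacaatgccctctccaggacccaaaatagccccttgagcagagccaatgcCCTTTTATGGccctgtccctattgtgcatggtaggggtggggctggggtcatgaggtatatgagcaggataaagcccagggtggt
Myh4: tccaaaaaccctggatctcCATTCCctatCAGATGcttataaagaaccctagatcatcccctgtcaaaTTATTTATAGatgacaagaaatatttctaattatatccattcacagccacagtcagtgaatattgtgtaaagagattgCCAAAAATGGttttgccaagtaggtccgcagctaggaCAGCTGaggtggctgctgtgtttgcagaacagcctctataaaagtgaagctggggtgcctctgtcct

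Muscle genes were lower in arthritic than in control joints of both genotypes. In Mmp8+/+ mice 31 of the 39 were called lower at a false discovery rate (FDR) of 5% in limma, beside 11.4% of all 18521 features tested, and 0 were called higher, beside 7.29%. In Mmp8-/- mice 22 were called lower, beside 13.4% of all features, and 0 higher, beside 8.04%. With the genotypes averaged, 35 were called lower, beside 22.1%, and 0 higher, beside 19.8%. The median log2 fold change of the 39 genes was -1.76 in Mmp8+/+ mice, a level 3.38 times lower, and -1.33 in Mmp8-/- mice, 2.52 times lower. The medians over all features were 0.02 and 0.01. All 39 fold changes were below 0 in each genotype. Without the 3 arrays at odds with their labels, 15 genes were called lower in Mmp8+/+ mice, 1 (Myh7) in Mmp8-/- mice and 19 with the genotypes averaged, with medians of -1.40, -1.13 and -1.34, beside 6.2%, 1.83% and 9.79% of all features called lower in that fit. There 39 of 39 fold changes stayed below 0 in Mmp8+/+ mice and 38 of 39 in Mmp8-/- mice, where Des was at 0.07.

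**Figure D1:**
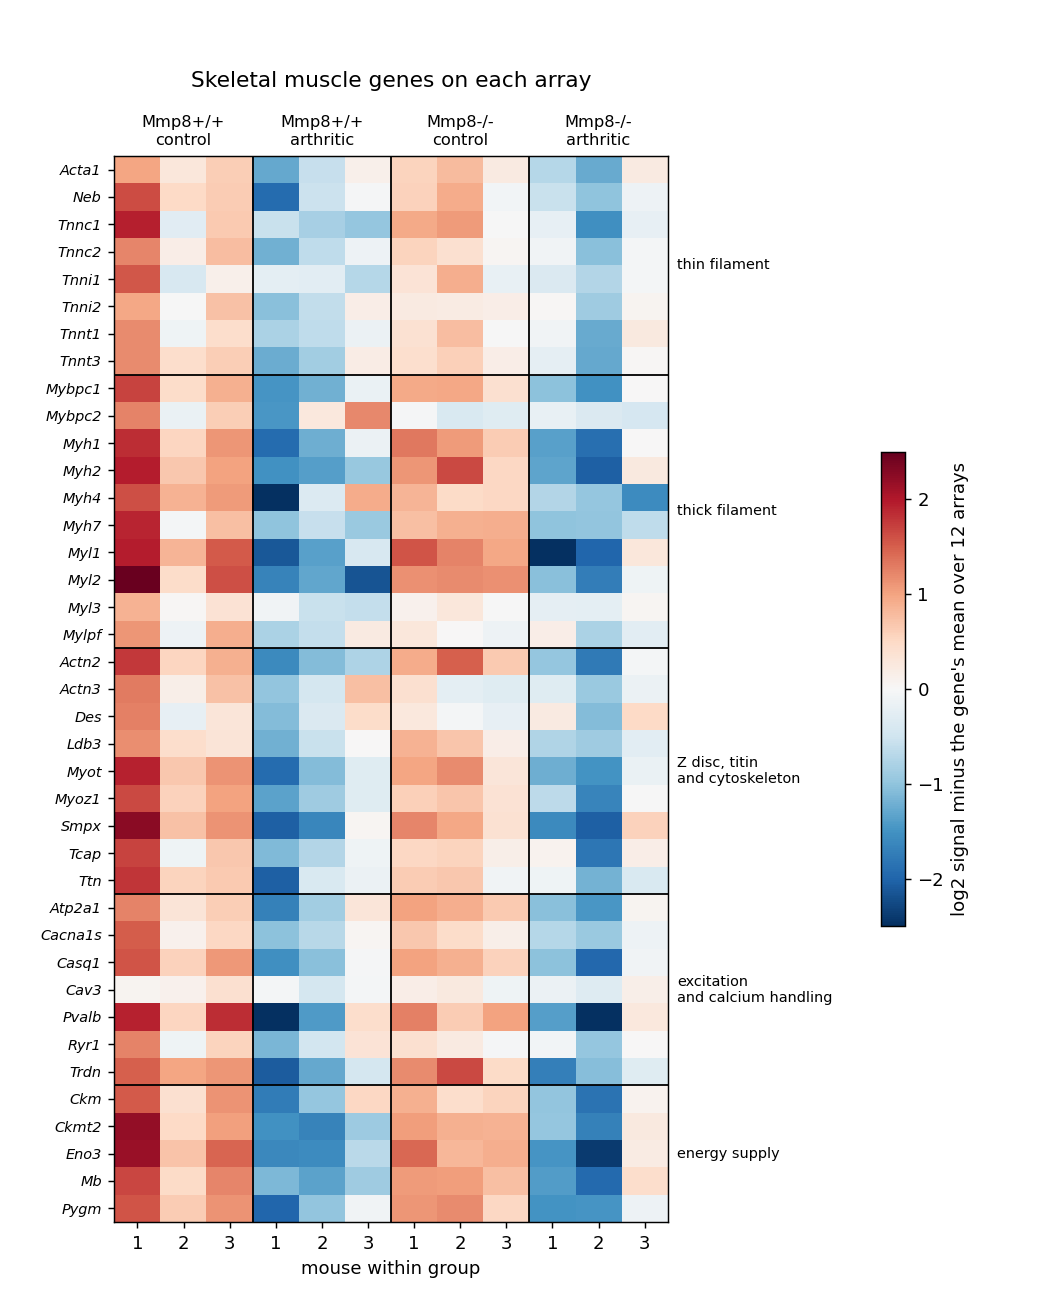
Log2 signal of each of the 39 muscle genes minus its mean over 12 arrays (colour, blue below and red above the mean, with the few largest values shown at the end colours), with 1 column per mouse and genes grouped by role. Control columns are mostly red and arthritic columns mostly blue, with Mmp8+/+ control mouse 1 the highest of 12 for 37 genes and columns of arthritic mice 3 paler than those of the other arthritic mice of each genotype.

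Every one of the 3 arthritic arrays lay below every control array for 29 of 39 genes in Mmp8+/+ mice, beside 21.4% of all features, and for 28 in Mmp8-/- mice, beside 20.6%. Across both genotypes the 6 arthritic arrays lay below the 6 control arrays for 22 genes, beside 11.8% of features. None of the 39 genes had all arthritic arrays above all control arrays, and the share of all features in that order was not computed. The 3 arrays at odds with their labels are controls, so that leaving them out could not lower these counts. They were then 29, 28 and 22, while the shares of all features rose to 23.8%, 29.7% and 14.7%.

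Beside the counts by role below, 11.4% of all features were called lower in Mmp8+/+ mice, 13.4% in Mmp8-/- mice and 22.1% on average. Shares without the 3 arrays at odds with their labels are those given above. Thick filament genes held some of the largest differences. Of 10 such genes 9 were called lower in Mmp8+/+ mice, 6 in Mmp8-/- mice and 9 on average, with median log2 fold changes of -1.92 and -1.72 in the 2 genotypes. These counts were 6, 1 and 6 without the 3 arrays at odds with their labels, with medians of -1.65 and -1.58. Myl2, the regulatory light chain of slow fibres, read 10.41, 8.41 and 9.57 in Mmp8+/+ control mice 1 to 3 and 6.28, 6.64 and 5.78 in arthritic Mmp8+/+ mice 1 to 3. In Mmp8-/- mice it read 9.08, 9.13 and 9.08 in controls and 6.91, 6.22 and 7.83 in arthritic mice. The arthritic and control arrays of Myl2 did not overlap, and the highest value of the 12 was again that of Mmp8+/+ control mouse 1. Its log2 fold change was -3.23 ± 0.43 (SE, n = 3 per group, limma adjusted p = 0.000148) in Mmp8+/+ mice, the largest of the 39, and -2.11 ± 0.43 (adjusted p = 0.00391) in Mmp8-/- mice. Myl1, the essential light chain of fast fibres, fell in both genotypes, with log2 fold changes of -2.74 ± 0.57 (limma adjusted p = 0.00418) and -2.68 ± 0.57 (adjusted p = 0.0053). Its signals of 7.34 and 7.92 in arthritic Mmp8-/- mice 1 and 2 lay far below the 10.18 of mouse 3 of that group.

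Among the myosin heavy chains, the motor proteins whose isoform sets the speed of a fibre, the slow and the fast genes did not follow the same mice. Myh7, the slow chain, read 9.80, 7.85 and 8.64 in Mmp8+/+ controls, 8.65, 8.78 and 8.79 in Mmp8-/- controls, 6.87, 7.31 and 6.95 in arthritic Mmp8+/+ mice and 6.88, 6.89 and 7.25 in arthritic Mmp8-/- mice. All 6 arthritic arrays lay in a narrow range below the controls, near the array medians over all features of 6.74 to 6.82. Whether low signal narrowed that range was not tested. Its log2 fold changes of -1.72 ± 0.34 (limma adjusted p = 0.00283) and -1.73 ± 0.34 (adjusted p = 0.00285) were nearly the same in the 2 genotypes. Myh2, the chain of the oxidative fast fibres, fell in Mmp8+/+ mice (-2.50 ± 0.47, limma adjusted p = 0.00207) and in Mmp8-/- mice (-2.13 ± 0.47, adjusted p = 0.00629), as did Myh1, of intermediate fast fibres (-2.25 ± 0.47, adjusted p = 0.00451, and -2.07 ± 0.47, adjusted p = 0.00809). Myh4, the chain of the fastest fibres, read 12.08, 11.33 and 11.52 in Mmp8+/+ controls but 7.77, 10.13 and 11.39 in arthritic Mmp8+/+ mice. Arthritic Mmp8+/+ mouse 3 thus lay within the control range, 12.3 times above mouse 1 of its group. In Mmp8-/- mice Myh4 read 11.31, 10.94 and 10.98 in controls and 9.73, 9.50 and 8.90 in arthritic mice, without overlap. The fall of Myh4 passed the test in Mmp8+/+ mice (-1.88 ± 0.60, adjusted p = 0.04) and not in Mmp8-/- mice (-1.70 ± 0.60, adjusted p = 0.0543). Myh2, Myh1 and Myh4 are neighbours on chromosome 11 and close paralogs, and how far their features share signal was not tested.

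**Figure D2:**
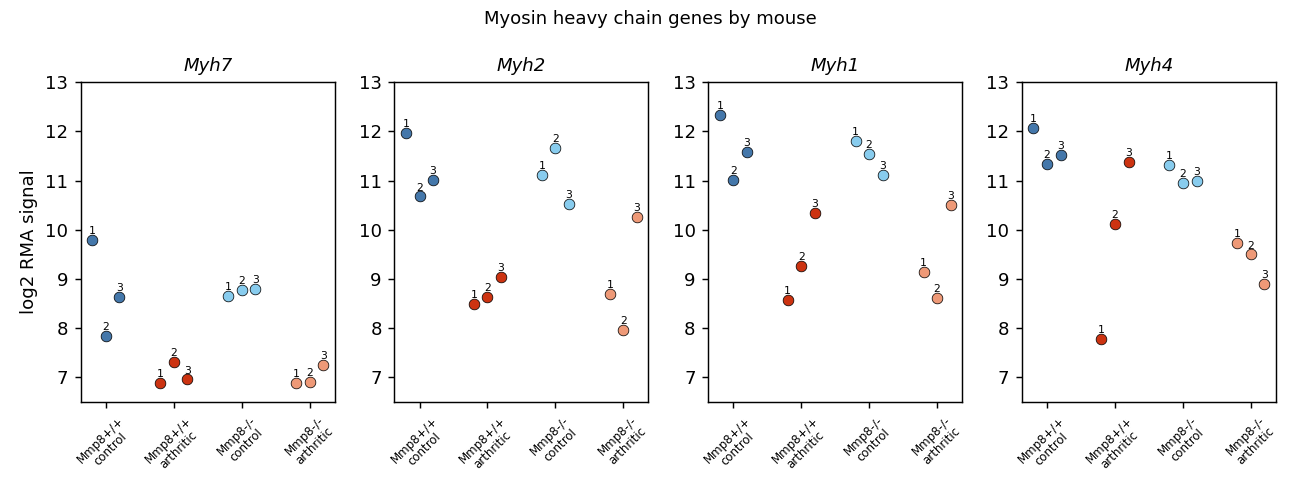
Log2 signal (y axis) of the 4 adult limb myosin heavy chain genes, slow to fast from left to right, with 1 point per mouse numbered within its group. Levels are read within a panel and not between panels, since each gene has its own probes. Myh4 of arthritic Mmp8+/+ mouse 3 (11.39) sits among the controls, while Myh7 and Myh2 of the same mouse (6.95 and 9.05) sit below them.

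The other thick filament genes ranged widely. Mybpc1, the myosin-binding protein of slow and mixed fibres, fell in Mmp8+/+ (-1.96 ± 0.40, limma adjusted p = 0.00371) and in Mmp8-/- mice (-1.61 ± 0.40, adjusted p = 0.0124), and of the 39 genes it tracked the mean of all most closely across mice of a group (r = 0.98 over 12 arrays). Its fast counterpart Mybpc2 read 9.50, 8.10 and 8.88 in Mmp8+/+ controls and 6.80, 8.53 and 9.46 in arthritic Mmp8+/+ mice. The groups overlapped, and the log2 fold changes of -0.57 ± 0.48 and -0.09 ± 0.48 did not pass the test in Mmp8+/+ (adjusted p = 0.423) or Mmp8-/- mice (adjusted p = 0.908). Mylpf, the fast regulatory light chain, and Myl3, an essential light chain of slow fibres, were called lower in Mmp8+/+ mice (-1.01 ± 0.33 and -0.83 ± 0.21), and their values of -0.36 ± 0.33 and -0.27 ± 0.21 in Mmp8-/- mice did not pass the test.

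The 8 thin filament genes were all called lower on average, 6 of them in Mmp8+/+ mice and 1 (Acta1) in Mmp8-/- mice, with medians of -1.29 and -0.82. Without the 3 arrays at odds with their labels 0 of the 8 were called in either genotype or on average, with medians of -0.997, -0.464 and -0.791. Acta1, the skeletal actin, read 13.34, 12.63 and 12.96 in Mmp8+/+ controls, 12.90, 13.14 and 12.57 in Mmp8-/- controls, 11.07, 11.78 and 12.47 in arthritic Mmp8+/+ and 11.64, 11.09 and 12.56 in arthritic Mmp8-/- mice. The third arthritic mouse of each genotype came close to the lowest control. Its changes were -1.20 ± 0.36 (limma adjusted p = 0.0313) and -1.11 ± 0.36 (adjusted p = 0.0411). Neb, the ruler of thin filament length, fell by 1.76 ± 0.42 in Mmp8+/+ mice (adjusted p = 0.0102) and was at -1.04 ± 0.42 in Mmp8-/- mice (adjusted p = 0.0894).

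The troponin genes come as fast and slow sets of the calcium-binding C, inhibitory I and tropomyosin-binding T subunits. In Mmp8+/+ mice the fast Tnnc2, Tnni2 and Tnnt3 were called lower, at -1.37 ± 0.32, -1.07 ± 0.32 and -1.38 ± 0.36. Of the slow set Tnnc1 was called lower (-1.56 ± 0.47), whereas Tnni1 (-0.83 ± 0.39) and Tnnt1 (-1.03 ± 0.37) did not pass the test. In Mmp8-/- mice none of the 6 passed, with changes from -1.31 ± 0.47 for Tnnc1 to -0.47 ± 0.32 for Tnni2. Averaged over the genotypes, all 6 were called lower, from -1.43 ± 0.33 for Tnnc1 to -0.77 ± 0.22 for Tnni2. Tnni1 overlapped between arthritic and control arrays in both genotypes, with 9.47 in Mmp8+/+ control mouse 1 but 7.52 in control mouse 2, below the 7.67 and 7.65 of arthritic Mmp8+/+ mice 1 and 2.

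Of 9 genes of the Z disc, titin and cytoskeleton, 6 were called lower in Mmp8+/+ mice, 5 in Mmp8-/- mice and 7 on average, with medians of -1.85 and -1.21. The counts fell to 3, 0 and 5 without the 3 arrays at odds with their labels, with medians of -1.46 and -0.80. Actn2, the alpha-actinin found at the Z disc of all fibres, read 11.19, 9.96 and 10.32 in Mmp8+/+ controls and 7.82, 8.33 and 8.65 in arthritic Mmp8+/+ mice. Its Mmp8-/- values were 10.34, 10.91 and 10.08 in controls and 8.45, 7.65 and 9.37 in arthritic mice. No arthritic array reached a control array, and Actn2 changed by -2.22 ± 0.39 (limma adjusted p = 0.00131) and -1.95 ± 0.39 (adjusted p = 0.00343). Actn3, the alpha-actinin of fast fibres, overlapped in both genotypes and was called in neither (-0.94 ± 0.38, adjusted p = 0.1, and -0.41 ± 0.38, adjusted p = 0.444), with 10.65 in arthritic Mmp8+/+ mouse 3 against 10.03 in Mmp8+/+ control mouse 2.

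Myot and Myoz1, Z disc proteins that bind alpha-actinin and filamin or calcineurin, were lower in both genotypes, Myot at -2.34 ± 0.42 and -1.78 ± 0.42 and Myoz1 at -1.92 ± 0.36 and -1.33 ± 0.36. Smpx, a small protein of the costamere, showed -2.59 ± 0.61 and -1.88 ± 0.61, both called, and differed 4.24 times between arthritic Mmp8+/+ mice 3 and 1 and 6.10 times between arthritic Mmp8-/- mice 3 and 2. Ldb3, which ties alpha-actinin to signalling proteins, was called in both at -1.22 ± 0.30 and -1.21 ± 0.30. Ttn, the giant spring of the sarcomere, was called lower in Mmp8+/+ mice (-1.85 ± 0.45) and was at -0.97 ± 0.45 in Mmp8-/- mice. Tcap, which caps titin at the Z disc, was at -1.40 ± 0.48 and -0.92 ± 0.48 and was called only with the genotypes averaged. Des, the intermediate filament that links myofibrils, read 10.83, 9.38 and 9.88 in Mmp8+/+ controls and 8.50, 9.23 and 10.04 in arthritic Mmp8+/+ mice, and neither its -0.78 ± 0.44 nor the -0.13 ± 0.44 in Mmp8-/- mice passed the test.

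Of 7 genes of excitation and calcium handling, 5 were called lower in each genotype and 6 on average, with medians of -1.48 in Mmp8+/+ and -1.66 in Mmp8-/- mice. Leaving out the 3 arrays at odds with their labels left 2 called in Mmp8+/+ mice, 0 in Mmp8-/- mice and 4 on average, with medians of -1.22 and -1.46. Trdn, which anchors calsequestrin to the release channel, read 11.29, 10.79 and 10.91 in Mmp8+/+ controls, 10.99, 11.45 and 10.27 in Mmp8-/- controls, 7.71, 8.53 and 9.35 in arthritic Mmp8+/+ and 8.08, 8.73 and 9.50 in arthritic Mmp8-/- mice. The groups did not overlap, and Trdn changed by -2.47 ± 0.40 (limma adjusted p = 0.00074) and -2.13 ± 0.40 (adjusted p = 0.0023). Trdn had 19 features with its symbol alone, and all 19 had a negative fold change in both genotypes. Their mean signals ran from 3.44 to 9.80, and the lowest lay under the 4.92 floor of the 18521 tested features. The 19 were therefore called in a fit of all 21789 features with 1 symbol. There 16 were called lower in Mmp8+/+ and 17 in Mmp8-/- mice, beside 9.40% and 11.01% of all features. Calls of the 19 without the 3 arrays at odds with their labels are not given.

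Atp2a1, the calcium pump of fast fibres, showed -1.48 ± 0.43 and -1.66 ± 0.43, Casq1, the calcium store of the reticulum, -1.95 ± 0.42 and -1.85 ± 0.42, and Cacna1s, the voltage sensor, -1.27 ± 0.34 and -1.02 ± 0.34, all called in both genotypes. Pvalb, the calcium buffer of fast fibres, had the widest spread among mice of a group, with an SD of 1.12 against 0.21 for Cav3. In arthritic mice it read 7.34, 8.55 and 10.41 in the Mmp8+/+ group and 8.59, 7.47 and 10.24 in the Mmp8-/- group, all below the 10.50 of the lowest control array. Its changes were -2.63 ± 0.69 (limma adjusted p = 0.0158) and -2.17 ± 0.69 (adjusted p = 0.0372). Ryr1, the calcium release channel, was called on average alone (-0.77 ± 0.26), and Cav3, the muscle caveolin, was not called (-0.29 ± 0.13 on average, adjusted p = 0.0735).

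All 5 genes of energy supply were called lower in both genotypes, with medians of -2.24 and -1.92. Eno3, the muscle enolase of glycolysis, read 12.31, 10.86 and 11.60 in Mmp8+/+ controls, 11.58, 10.97 and 11.05 in Mmp8-/- controls, 8.52, 8.56 and 9.47 in arthritic Mmp8+/+ and 8.66, 7.76 and 10.35 in arthritic Mmp8-/- mice. Arthritic Mmp8-/- mouse 3 lay closest to the controls without reaching them. Eno3 changed by -2.74 ± 0.51 (limma adjusted p = 0.00194) and -2.27 ± 0.51 (adjusted p = 0.00691). Log2 fold changes in Mmp8+/+ and Mmp8-/- mice were -2.61 ± 0.43 and -1.74 ± 0.43 for Ckmt2, the mitochondrial creatine kinase, and -2.24 ± 0.44 and -1.92 ± 0.44 for Mb, the oxygen store myoglobin. They were -2.13 ± 0.43 and -1.97 ± 0.43 for Pygm, which breaks down glycogen, and -1.76 ± 0.51 and -1.55 ± 0.51 for Ckm, the cytosolic creatine kinase. Of these, Ckm overlapped in Mmp8+/+ mice, where arthritic mouse 3 read 11.54 and control mouse 2 read 11.44. Without the 3 arrays at odds with their labels 4 of the 5 were called in Mmp8+/+ mice, 0 in Mmp8-/- mice and 4 on average, with medians of -1.98 and -1.67.

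**Figure D3:**
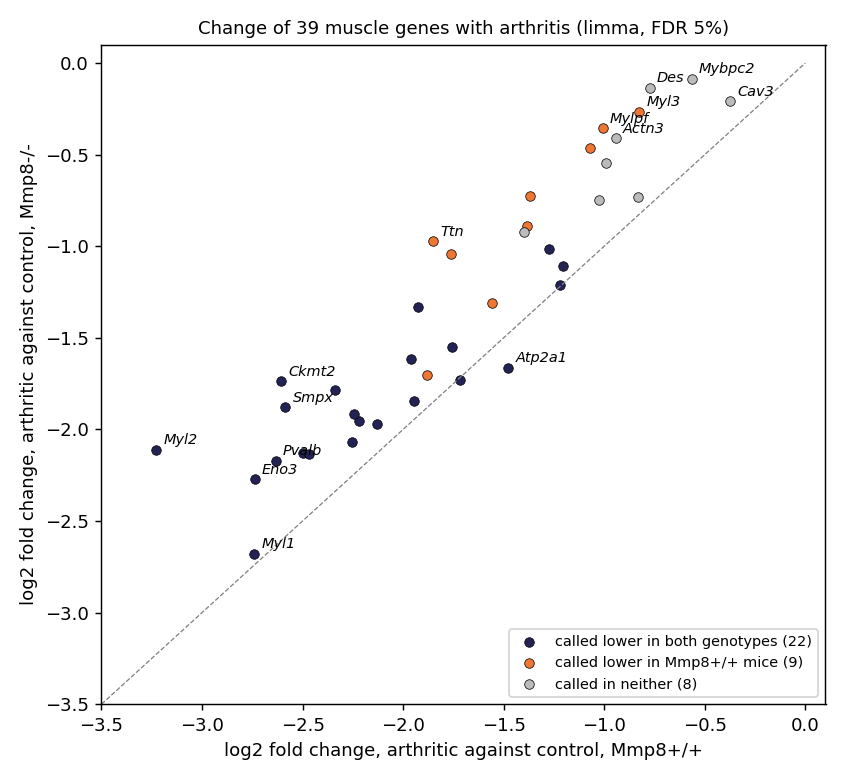
Log2 fold change of each of the 39 muscle genes, arthritic against control, in Mmp8+/+ mice (x axis) and in Mmp8-/- mice (y axis), with colour for the limma calls at an FDR of 5% and a dashed line where the 2 changes are equal. All points lie below 0 on both axes, and 37 of 39 lie above the line, where the fall is smaller in Mmp8-/- mice. No gene's difference between the genotypes passed the test.

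The genotypes were then compared directly. Among arthritic mice 0 of the 39 genes were called between Mmp8-/- and Mmp8+/+ mice, beside 0.0054% of all features, with a median difference of 0.08. Among control mice 0 were called, beside 0% of features, with a median of -0.30 and 38 of 39 genes lower in Mmp8-/- mice. Mmp8-/- controls, used here and in the interaction, include mouse 2, whose array had Mmp8 signal. The interaction, the arthritis effect in Mmp8-/- minus that in Mmp8+/+ mice, was called for 0 genes, beside 0% of features, with a median of 0.37 and 37 of 39 genes above 0. In each of these 3 comparisons 0 genes had an unadjusted p below 0.05. The largest interaction was that of Myl2, 1.12 with a 95% interval from -0.18 to 2.41, and that of Myh7 was -0.01 with an interval from -1.03 to 1.002, so that these data leave wide room for a difference in either direction. Of the 39 genes 22 were called lower in both genotypes, 9 in Mmp8+/+ mice and not in Mmp8-/- mice, 0 the other way round and 8 in neither, of which 4 were called on average. Not called in any of these were Actn3, Mybpc2, Des and Cav3. Mmp8+/+ control mouse 1, one of the arrays with Xist signal, was the highest of the 12 for 37 genes, and without it the median in Mmp8+/+ mice was -1.40 with 17 genes called lower, the median between control genotypes -0.01 and the median interaction 0.10.

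Muscle signal varied widely between mice of the same group. The mean over the 39 genes, each centred on its own mean over 12 arrays, was 1.55, 0.33 and 0.85 in Mmp8+/+ controls, 0.76, 0.73 and 0.33 in Mmp8-/- controls, -1.40, -0.85 and -0.16 in arthritic Mmp8+/+ mice and -0.75, -1.36 and -0.03 in arthritic Mmp8-/- mice. The 6 control arrays lay above the 6 arthritic arrays, with 0.36 on the log2 scale between the lowest control and the highest arthritic mouse. The range over the 12 arrays was 2.94, or 7.70 times, of which controls alone spanned 2.33 times and arthritic mice alone 2.58 times. The SD between mice of a group had a median of 0.667 over the 39 genes and of 0.232 over all features, and 37 of the 39 lay above the 95th percentile of all features, 0.442. By group the median SD of the muscle genes was 0.63 in Mmp8+/+ controls, 0.26 in Mmp8-/- controls, 0.70 in arthritic Mmp8+/+ and 0.76 in arthritic Mmp8-/- mice.

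**Figure D4:**
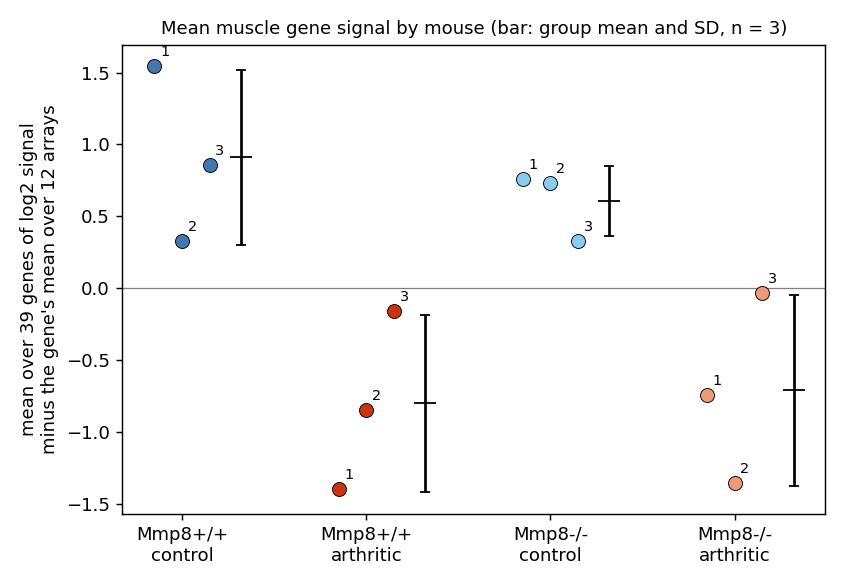
Mean over the 39 muscle genes of log2 signal minus the gene's mean over 12 arrays (y axis), 1 point per mouse numbered within its group, with the group mean and SD (n = 3) beside the points. Control mice lie between 0.33 and 1.55 and arthritic mice between -1.40 and -0.03.

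The spread was largely shared by the genes. Arthritic Mmp8+/+ mouse 3 had the highest signal of its group for 33 of 39 genes and mouse 1 the lowest for 32. Arthritic Mmp8-/- mouse 3 was the highest of its group for 34 and mouse 2 the lowest for 33. Of the 12 arrays, arthritic Mmp8+/+ mouse 1 was the lowest for 19 genes and arthritic Mmp8-/- mouse 2 for 16. The deviations of a gene from its group means correlated with those of the mean of the 39 with a median r of 0.90 over the 12 arrays, from 0.37 for Myl3 to 0.98 for Mybpc1, a description in which each gene is itself part of the mean and all share the same RNA samples. Lower values were those of Cav3 (0.39), Myh4 (0.53), Tnni1 (0.58) and Myh7 (0.63). Mean signals over the 12 arrays were 6.68 for Myl3, 6.89 for Cav3, 7.91 for Tnni1 and 7.89 for Myh7, but 10.47 for Myh4. Whether low signal lowered r was not tested.

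Fibre type was read from 13 fast and 6 slow genes among the 39. Of the fast genes 11 were called lower in Mmp8+/+ mice, 6 in Mmp8-/- mice and 11 on average, with medians of -1.48, -1.33 and -1.57. Of the slow genes 4, 2 and 6 were called lower, with medians of -1.29, -1.03 and -1.16. Beside both lists, 11.4%, 13.4% and 22.1% of all features were called lower. Of the fast genes 4, 0 and 6 were called without the 3 arrays at odds with their labels, with medians of -1.22, -1.13 and -1.34, and of the slow genes 2, 1 and 2, with medians of -0.83, -0.49 and -0.66. A difference between the fast and the slow genes was not tested. The mean of the centred fast genes minus that of the slow genes was -0.18, 0.42 and 0.31 in Mmp8+/+ controls, 0.13, -0.29 and 0.03 in Mmp8-/- controls, -0.86, -0.10 and 1.09 in arthritic Mmp8+/+ mice and -0.26, -0.29 and 0.01 in arthritic Mmp8-/- mice. The lowest and the highest of the 12 values came from arthritic Mmp8+/+ mice 1 and 3, and the other 10 lay between them in all groups. In that group the SD was 0.88 for the fast mean and 0.12 for the slow mean, so that the difference mostly followed the fast mean. Mean signals over 12 arrays were 6.68 to 9.42 for the slow genes and 8.26 to 11.62 for the fast genes. Whether low signal limited the slow genes was not tested.

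**Figure D5:**
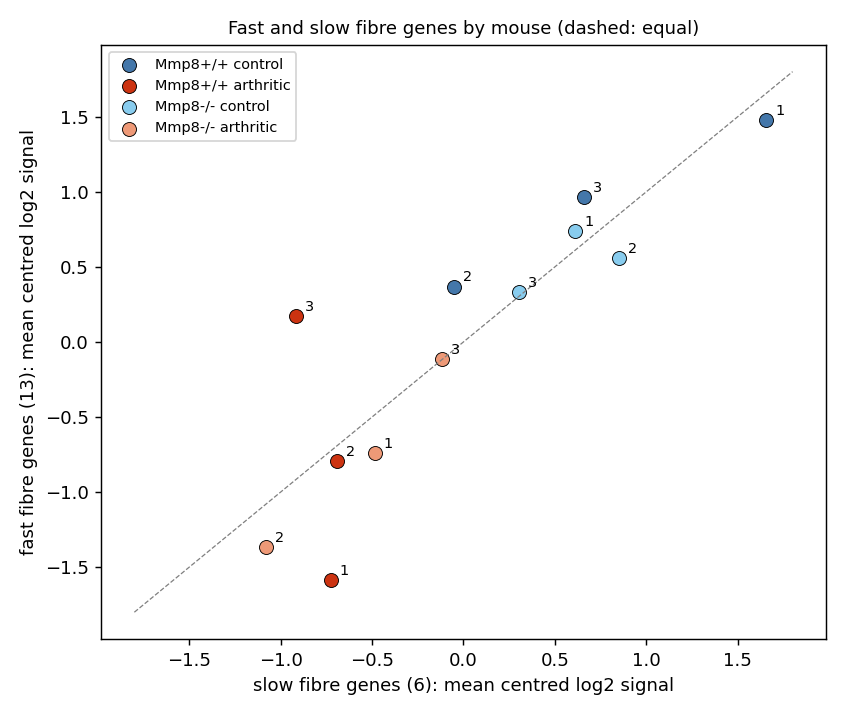
Mean centred log2 signal of the 6 slow fibre genes (x axis) and the 13 fast fibre genes (y axis), 1 point per mouse numbered within its group, with a dashed line where both are equal. Most mice lie near the line, arthritic Mmp8+/+ mouse 3 lies above it (fast 0.17, slow -0.92) and mouse 1 of that group below it (fast -1.59, slow -0.73).

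Arthritic Mmp8+/+ mouse 3 had the highest fast mean of the 6 arthritic mice, 0.17, and a slow mean of -0.92, near the -0.73 and -0.69 of its group mates. All 13 fast genes were the highest of its group. Of these, 6 were at or above the lowest control array and the others below every control, with Myh4 (11.39), Mybpc2 (9.46) and Actn3 (10.65) among the former and Myh2 (9.05 against 10.52) among the latter. Of the 6 slow genes 4 were the lowest of its group and 0 reached the lowest control, with Myl2 at 5.78, the lowest of all 12 arrays. Arthritic Mmp8-/- mouse 3 had another pattern, with Myh2 at 10.26, close to the 10.52 of the lowest control and 4.88 times above mouse 2 of its group, but Myh4 at 8.90, the lowest of its group. In that mouse 2 of 13 fast and 4 of 6 slow genes were at or above the lowest control. How many ankle joints were taken per mouse and which muscles came with them are not given in the sources used here. Their part in these patterns was not tested.

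Further muscle genes, in lists written with earlier results of these data known, were also tested. Shares of all features called lower, for comparison with these and the following lists, were 11.4% in Mmp8+/+ mice, 13.4% in Mmp8-/- mice and 22.1% on average, and shares called higher were 7.29%, 8.04% and 19.8%. Of 26 other sarcomere genes 19 were called lower in Mmp8+/+ and 13 in Mmp8-/- mice, with medians of -1.16 and -0.92, and 12 and 0 without the 3 arrays at odds with their labels, where 6.2% and 1.83% of all features were called lower. The smallest p-values were those of Myoz2, a calcineurin-binding Z disc protein (-2.87 ± 0.49 and -2.01 ± 0.49), Cryab, a small heat shock protein (-1.11 ± 0.18 and -1.05 ± 0.18), Hspb6, another (-1.70 ± 0.36 and -1.61 ± 0.36), and Mylk2, the skeletal myosin light chain kinase (-1.88 ± 0.38 and -1.41 ± 0.38). The 1 gene of that list called higher, named after its values were seen, was Ankrd1, a titin-binding protein known to respond to stretch and injury. It read 7.74, 6.07 and 7.05 in Mmp8+/+ controls, 7.10, 6.52 and 6.54 in Mmp8-/- controls, 7.95, 8.42 and 9.07 in arthritic Mmp8+/+ and 8.98, 8.22 and 10.16 in arthritic Mmp8-/- mice. All arthritic arrays lay above all control arrays, and Ankrd1 rose by 1.53 (limma adjusted p = 0.0301) and 2.40 (adjusted p = 0.00234) on the log2 scale.

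Of 17 other genes of excitation and calcium handling 7 were called lower in Mmp8+/+ and 5 in Mmp8-/- mice, with medians of -0.65 and -0.52, beside 11.4% and 13.4% of all features. Srl, Hrc, Jph1 and Clcn1, of the reticulum, its junctions and the chloride conductance, had average changes from -1.24 to -1.95. Sln, the inhibitor of the calcium pump, was called higher in Mmp8+/+ mice (0.53) and again named after its values were seen. Of 24 other genes of muscle energy 17 and 12 were called lower, with medians of -0.92 and -0.68, led by Gpd1, Lpl, Slc2a4 and Cox7a1, of which Gpd1, Lpl and Slc2a4 are also used by fat cells. Of 13 genes of the dystrophin complex and membrane repair 8 and 7 were called lower, with medians of -1.07 and -1.08, led by Lama2 (-1.34 ± 0.15 and -1.41 ± 0.15), Itga7, Sgcd and Mlip. Without the 3 arrays at odds with their labels 3 and 0 of the 17 genes, 8 and 3 of the 24, and 6 and 2 of the 13 were called lower in Mmp8+/+ and Mmp8-/- mice, and Sln was no longer called.

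Of 15 genes of developing or regenerating muscle 3 were called lower in Mmp8+/+ mice, 4 in Mmp8-/- mice and 5 on average, with medians of -0.32 and -0.03, beside 11.4%, 13.4% and 22.1% of all features. Those with the smallest p-values were lower, namely Mef2c (-1.45 ± 0.25 and -1.85 ± 0.25), Mef2a, the embryonic myosin Myh3 (-0.80 ± 0.21 and -0.94 ± 0.21) and Ncam1. Chrng, the fetal subunit of the acetylcholine receptor, was called higher in Mmp8-/- mice (0.85, limma adjusted p = 0.0265). Not called on average were Tnnt2 (0.34), Myog (0.25), Mymk (0.20), Chrnd (0.20) and Myod1 (0.05), above 0. Also not called were Myl4 (-0.06), Chrna1 (-0.32), Myf6 (-0.45) and Actc1 (-0.78), below 0. Of 10 satellite cell genes 1 was called lower in Mmp8+/+ mice, 2 in Mmp8-/- mice and 5 on average, among them Cdh15 (-0.67 ± 0.17 and -0.56 ± 0.17), and 1 was called higher on average (Pax3, at 0.40). Among those not called on average, Pax7 (0.30) and Calcr (0.29) were above 0 and Myf5 (-0.32) was below 0, so that the list had no single direction. Of 9 neuromuscular junction genes 2, 1 and 3 were called lower, Lrp4 in both genotypes (-1.05 ± 0.22 and -1.14 ± 0.22). Without the 3 arrays at odds with their labels 1, 1 and 3 of the 15 genes, 0, 0 and 1 of the 10, and 2, 0 and 2 of the 9 were called lower, and neither Chrng nor Pax3 was called. No difference between these lists and the other muscle genes was tested.

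Of 20 atrophy and catabolic genes 4 were called lower and 4 higher in Mmp8+/+ mice and 7 and 3 in Mmp8-/- mice, beside 11.4% and 7.29% and 13.4% and 8.04% of all features. The same counts were 2 and 2 in Mmp8+/+ mice and 0 and 2 in Mmp8-/- mice without the 3 arrays at odds with their labels. The metallothioneins Mt2 and Mt1 rose by 2.07 ± 0.17 and 0.93 ± 0.19 in Mmp8+/+ and by 2.24 ± 0.17 and 0.95 ± 0.19 in Mmp8-/- mice. Gabarapl1, of autophagy, fell in both (-0.83 ± 0.17 and -0.89 ± 0.17), and Klf15, a glucocorticoid-responsive factor, was called lower in Mmp8-/- mice (-0.85 ± 0.16). The muscle ubiquitin ligases Fbxo32 and Trim63 did not pass the test, at -0.18 and 0.07 on average. Metallothioneins and autophagy genes are used by many cells of a joint, so the share of their signal that comes from muscle is unknown here.

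Markers of other cells moved as well. All 8 adipocyte markers were called lower in both genotypes, beside 11.4% and 13.4% of all features, with medians of -1.995 and -2.083. Without the 3 arrays at odds with their labels the medians were -2.32 in Mmp8+/+ and -2.04 in Mmp8-/- mice. The mean signal of the 8 was 8.70 to 9.61 on control arrays and 7.12 to 7.65 on arthritic arrays. Of 10 smooth muscle markers 6 and 7 were called lower, with medians of -0.97 and -0.84, and Myh11 was at -1.78 ± 0.18 and -1.84 ± 0.18. The smooth muscle mean lay between 7.92 and 8.30 on the 6 arthritic arrays, over which the mean of the 39 skeletal genes ranged 2.58 times. Of 5 Schwann cell markers 3 and 3 were called lower, with means of 8.52 to 8.96 in controls and 7.77 to 8.25 in arthritic mice. Cardiac markers, a check on the slow genes that the heart shares, were low, with means of 5.79 to 6.54, and 0 of 8 were called lower and 5 higher on average, by 0.35 to 0.58. With the 3 arrays left out 5 and 1 smooth muscle, 3 and 1 Schwann cell and 0 and 0 cardiac markers were called lower in Mmp8+/+ and Mmp8-/- mice, and 0 cardiac markers were called higher on average.

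The remaining lists were less uniform. Of 8 tendon markers 2 were called lower and 3 higher in Mmp8+/+ mice and 2 and 2 in Mmp8-/- mice, with Chad at -3.31 ± 0.41 and -3.40 ± 0.41 and Thbs4 at 1.47 ± 0.16 and 1.05 ± 0.16. Of 4 erythroid markers 3 and 1 were called lower, of 9 keratinocyte markers 0 and 2 lower, of 8 endothelial markers 1 and 2 lower (with Tie1 higher in Mmp8+/+ mice), and of 10 neutrophil markers 4 and 0 lower, while Csf3r and Cxcr2 were higher in both genotypes. Lower calls without the 3 arrays were 2 and 1 for tendon, 4 and 0 for erythroid, 0 and 0 for keratinocyte, 0 and 0 for endothelial and 3 and 0 for neutrophil markers. The part of any of these cells in the muscle result was not tested.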

How the data were processed

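The authors deposited log2 RMA values, which per the labels were made with RMA in Partek, from 12 arrays of 28853 features. No column was left out (0). The genome build is not given in the sources used here. The filter on values below background that the study describes cannot be repeated from this table. Of 21789 features with 1 symbol in the platform annotation, the 85% with the highest mean were tested (18521, lowest mean 4.92). Groups come from the labels. The mice are separate animals, and their numbers follow accession order only.

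Group means were fitted with limma 3.58.1 in R 4.3.3 over all 12 arrays with 1 mean per group, no covariate, and variances moderated on 8 residual degrees of freedom. The methods' linear regression was an alternative. P-values are two-sided and adjusted by Benjamini-Hochberg over all tested features, with an FDR of 5%. Errors are SE for fold changes and SD for groups. The number of arrays limits the precision. The procedure was tested on simulated data.

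Members and lists were chosen with earlier results of these data known. Named are all 39 members, up to 4 genes of each other list with the smallest p for arthritis averaged over genotypes, the 10 other features most like the member mean, and Mmp8 and Xist. Some other genes of these lists, such as Ankrd1, Sln and the further genes of developing muscle and satellite cells, were named after their values were seen. Alternatives were an FDR of 1%, other feature filters, fits, normalisations and feature rules, and the removal of arrays. Removing 3 arrays from the counts without overlap and from the other gene lists was chosen after seeing the data. Protein identities of fast and slow isoforms were planned and not computed, since no protein table was used here.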

Additional observations from a re-analysis of the deposited data

How the results depend on the processing

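The median fold changes of the 39 genes kept their sign for arthritis in each genotype under every alternative run, and counts of genes called higher were 0 throughout. For comparison with the counts below, shares of all features called lower at an FDR of 1% were 5.69% in Mmp8+/+ mice, 5.96% in Mmp8-/- mice and 14.3% on average. Under ordinary linear regression they were 7.86%, 8.89% and 19.0%, and without the arrays with Xist signal 6.81%, 6.71% and 15.5%. Shares without all 3 arrays at odds with their labels are those given above. Genes called lower in Mmp8+/+ mice, 31 in the report, were 17 at an FDR of 1%, 15 under ordinary linear regression, 15 without the arrays with Xist signal and 15 without all 3 arrays at odds with their labels. In Mmp8-/- mice, 22 became 12, 4, 15 and 1 under the same alternatives, the last with 1 control mouse assumed to vary like the other groups. Averaged over genotypes, 35 became 29, 29, 29 and 19. Leaving out each array in turn gave 17 to 34 genes in Mmp8+/+ mice (17 without Mmp8+/+ control mouse 1, 19 and 20 without arthritic Mmp8+/+ mice 1 and 2), 13 to 24 in Mmp8-/- mice (13 without Mmp8-/- control mouse 1) and 32 to 36 on average. Shares of all features called lower in these fits ranged from 7.27% to 13.6%, from 7.05% to 14.4% and from 18.4% to 23.2%. The lowest of the Mmp8+/+ shares was that without Mmp8+/+ control mouse 1, and of the Mmp8-/- shares that without Mmp8-/- control mouse 1. The medians of the 39 genes then ranged from -2.16 to -1.26, from -1.58 to -1.08 and from -1.70 to -1.34. The median between genotypes ranged from -0.22 to 0.43 in arthritic mice, so that its sign depended on the mice included (below 0 without arthritic Mmp8+/+ mouse 1 or arthritic Mmp8-/- mouse 3), from -0.63 to -0.01 in controls and from 0.02 to 0.75 for the interaction, with 0 genes called each time.

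Among the fold changes with arthritis, signs turned for Mybpc2 and Des, which were not called, in 8 cases. Mybpc2 was at 0.16 in Mmp8+/+ mice and 0.0392 on average without arthritic Mmp8+/+ mouse 1, and in Mmp8-/- mice at 0.0886 after quantile normalization and at 0.0190 without Mmp8-/- control mouse 1 or without the arrays with Xist signal. Over arrays left out in turn it ranged from -1.16 to 0.16, from -0.157 to 0.0190 and, on average, from -0.625 to 0.0392. Des in Mmp8-/- mice was at 0.0331 after quantile normalization and 0.0730 without all 3 arrays, and ranged from -0.444 to 0.35 over arrays left out (0.35 without arthritic Mmp8-/- mouse 2). Among single genes, 315 alternatives lost a call, 30 gained one and 2537 changed none. The causes were not tested. No paired analysis was possible because the mouse numbers follow accession order and pair nothing.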

Other observations

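Outside the 39 genes, the features whose deviations from their group means were most like those of the member mean over 12 arrays were Klhl41, Ankrd23, Tmod4, Fitm1, Eef1a2, Srl, Hjv, Asb2, Pde4dip and Cap2, with r from 0.991 to 0.965, beside a median of 0.03 over all other features. These are descriptions over arrays that share their RNA samples. Klhl41, which stabilises sarcomere proteins, Tmod4, which caps thin filaments, and Eef1a2, the translation elongation factor of mature muscle and neurons, had average changes with arthritis of -1.48, -1.25 and -0.95. All were called lower on average in limma (adjusted p = 0.00313, 0.0109 and 0.00534), beside 22.1% of all features. By genotype they were called lower in Mmp8+/+ mice (-1.85, -1.65 and -1.14). In Mmp8-/- mice none of them passed the test (-1.11, -0.86 and -0.77, limma adjusted p = 0.0987, 0.211 and 0.103).

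Ankrd23, a titin-binding ankyrin repeat protein of the same family as Ankrd1 and Ankrd2, followed the muscle mean across mice of a group with r = 0.989, and its mean was 9.44 in control and 9.45 in arthritic mice, with log2 fold changes of -0.42 ± 0.46 in Mmp8+/+ (limma adjusted p = 0.532) and 0.44 ± 0.46 in Mmp8-/- mice (adjusted p = 0.488), neither past the test. Over the 12 arrays it ranged from 8.45 to 10.60. Ankrd2, of the same family, was at -0.86 in Mmp8+/+ and 0.30 in Mmp8-/- mice (limma adjusted p = 0.174 and 0.63), and Ankrd1 was called higher in both. No difference between these 3 genes and the 39 was tested.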
